A study of Mus musculus with 12 samples.

Results

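Carbonic anhydrases are zinc enzymes that convert carbon dioxide and water into bicarbonate and a proton, and back. The 7 genes described here are Car2, Car3, Car4, Car8, Car9, Car12 and Car13, taken by symbol from a count table of 30743 genes or transcripts and followed across 12 libraries of cancer cells sorted from mouse lung tumours. All 7 were in the table, and 6 of them passed the filter on low counts; Car3 did not. The genes were chosen by family name with their measured levels and changes in all 4 groups of libraries in view, and which of those values counted is not recorded. Their levels and changes are therefore given as a description, without p-values. How many of them lie past the threshold used for all genes is a description too and supports nothing.

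The study asked how loss of the kinase Lkb1, or of salt-inducible kinases that Lkb1 activates, alters lung cancer cells. All 12 libraries carry the KT background, on mixed BL6/129 mice. The Lkb1-deleted group (KT;Lkb1f/f, 3 libraries) also carries floxed alleles of Lkb1, whose gene symbol is Stk11. The Sik-targeted group (KT;H11LSL-Cas9_sgSik, 5 libraries) carries a Cre-dependent Cas9 allele and guides against Sik genes, with 2 libraries titled sgSik1-3 and 3 titled sgSik1. The KT group (4 libraries) carries neither change and is the control. By the labels no library carries the Cas9 allele without guides against Sik genes. Effects of Cas9 or of guides as such therefore cannot be told apart from those of targeting Sik genes. Ages and times after tumour initiation are not among the labels used here. The labels do not say which genes the range in sgSik1-3 covers, or whether libraries come from separate animals, so the p-values reflect differences among libraries that can be technical in part. Alternative names mention lentiviral Cre for KT replicates 2 to 4 and not for KT replicate 1. Cells positive for markers of blood cells, macrophages, red cells or endothelium (CD45, F4/80, Ter119, CD31) were excluded by cell sorting.

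The members fall into kinds by where the protein sits. Car2, Car3 and Car13 are cytosolic. Car4 is tethered to the outer cell surface by a lipid anchor and is known in the lung from capillary endothelium, while Car9 and Car12 are transmembrane enzymes whose catalytic domain faces outward, where they set the pH at the surface of tumour cells. Car9 is a textbook target of the hypoxia-inducible factor HIF and is otherwise known from the gastric lining. Car8 lacks a residue needed for catalysis and instead binds the inositol trisphosphate (IP3) receptor Itpr1.

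Total counts ran between 3847760 and 13955181 per library, and the 4 most abundant transcripts took 18.4% of them in KT replicate 1 and up to 74.2% in sgSik1 replicate 1. Levels are CPM, counts scaled to library sizes that were themselves adjusted by trimmed means. A count of 3 corresponds to 0.164 to 0.853 CPM, depending on the library. Stk11 stood at 9.23 to 16.6 CPM in the Lkb1-deleted libraries, below the 22.6 to 137 CPM of the Sik-targeted and the 31.0 to 44.7 CPM of the KT libraries. Sik3 was lower in every Sik-targeted library (8.74 to 21.0 CPM) than in every KT library (26.9 to 46.7 CPM), whereas Sik1 and Sik2 were higher in every Sik-targeted library, and guide cutting need not lower a transcript. The epithelial marker Epcam was at 118 to 388 CPM across all libraries. KT replicates 2 and 3 stood apart: 23582 and 23747 genes had at least 1 count there, while the others had 14283 to 16533. Lkb1-deleted replicate 1 stood apart in its summed gastric and gut markers, 1678 CPM against 36.6 and 60.4 CPM in the other Lkb1-deleted libraries. Values without these libraries are given where they bear on a result.

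The number of members called differed between the comparisons. Between Lkb1-deleted and KT libraries, 0 of the 6 tested members passed an adjusted p of 0.05. The test was edgeR's quasi-likelihood test with Benjamini-Hochberg adjustment over all genes. Beside them, 1.16% of the 13575 genes tested passed (0.611% higher, 0.552% lower). An unadjusted p under 0.05 was seen for 4 members, beside 1782 of these genes, and DESeq2 called 1 member and 511 genes. In Sik-targeted against KT libraries, 2 members were called higher (Car9 and Car12) and 2 lower (Car4 and Car8), beside 12.4% of all genes called, 5.81% higher and 6.56% lower. In Lkb1-deleted against Sik-targeted libraries, 1 member (Car9) was called, lower, beside 0.221% of all genes, 0.103% higher and 0.118% lower. In sgSik1-3 against sgSik1 libraries, 0 members and 0% of 15303 genes were called by edgeR; 0 members and 528 genes had an unadjusted p under 0.05, and DESeq2 called 0 members and 6 genes. The median log2 change of the tested members was -1.65 in Lkb1-deleted against KT libraries, 0.0061 in Sik-targeted against KT libraries and -0.89 in Lkb1-deleted against Sik-targeted libraries, beside -0.040, -0.035 and -0.023 over all genes tested. Since the members were chosen with these results known, nothing is read from the counts.

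**Figure D1:**
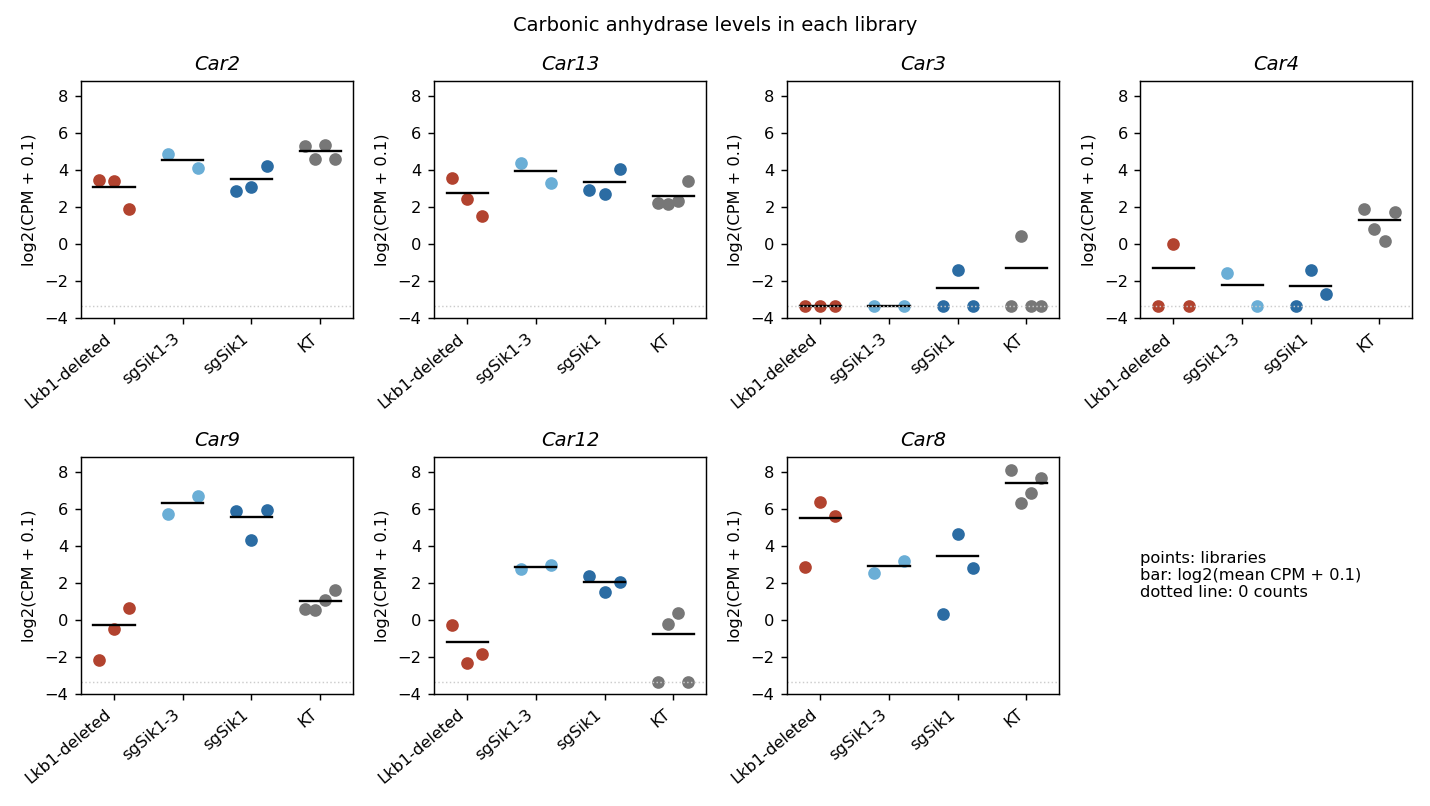
Level of each of the 7 carbonic anhydrases as log2(CPM + 0.1), with 1 point per library, grouped as Lkb1-deleted (3), sgSik1-3 (2), sgSik1 (3) and KT (4). Bars mark the mean CPM on the same scale and the dotted line marks 0 counts. The 5 Sik-targeted libraries lie above all others for Car9 and Car12, and the 4 KT libraries lie above all Sik-targeted libraries for Car4 and Car8.

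Car9 was the member that stood furthest above its KT level in the Sik-targeted libraries. It had 0.122, 0.617 and 1.47 CPM in Lkb1-deleted replicates 1 to 3, 52.2 and 104 CPM in sgSik1-3 replicates 1 and 2, 57.7, 19.9 and 61.4 CPM in sgSik1 replicates 1 to 3, and 1.42, 1.34, 2.01 and 2.97 CPM in KT replicates 1 to 4. Every Sik-targeted library lay above every KT and every Lkb1-deleted library, while the Lkb1-deleted and KT libraries overlapped. The group means were 0.736 ± 0.682 CPM in Lkb1-deleted (SD, n = 3), 59.0 ± 29.9 CPM in Sik-targeted (SD, n = 5) and 1.93 ± 0.753 CPM in KT libraries (SD, n = 4). The fitted log2 change was 4.95 (SE 0.58) in Sik-targeted against KT libraries, a 31.0-fold higher level. The change in Lkb1-deleted against KT libraries was -1.45 (SE 0.68), from 15 and 66 counts in all. Without KT replicates 2 and 3 these changes were 4.74 and -1.61. Over 19 alternative settings the Sik-targeted value lay between 4.65 and 5.34.

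The Car9 gene spans chromosome 4, 43507026 to 43513729, on the plus strand (GRCm38.p6, RefSeq), exons, introns and untranslated regions together. In the RefSeq table a transcript of Arhgef39, listed under an older symbol with 46 counts in all libraries together, shares 1722 bases of that span. The strand setting of the counting is not given in the sources used here, so reads in the shared stretch cannot be assigned with certainty. The 250 bases before the RefSeq start of Car9 and of Car12, at chr4:43506776-43507025 and chr9:66713436-66713685 on the plus strand, are shown because these are the members that stood higher in the Sik-targeted libraries. Capitals mark every match, on either strand, to 5 motifs searched by their letters: the HIF core as ACGTG or GCGTG, the CREB element TGACGTCA, its core TGACG, which lies within it, and the AP-1 element TGAGTCA.
Car9: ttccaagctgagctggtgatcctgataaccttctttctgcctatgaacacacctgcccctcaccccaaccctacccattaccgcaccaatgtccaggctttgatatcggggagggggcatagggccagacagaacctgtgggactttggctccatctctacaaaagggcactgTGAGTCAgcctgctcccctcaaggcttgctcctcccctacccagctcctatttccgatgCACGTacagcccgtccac
Car12: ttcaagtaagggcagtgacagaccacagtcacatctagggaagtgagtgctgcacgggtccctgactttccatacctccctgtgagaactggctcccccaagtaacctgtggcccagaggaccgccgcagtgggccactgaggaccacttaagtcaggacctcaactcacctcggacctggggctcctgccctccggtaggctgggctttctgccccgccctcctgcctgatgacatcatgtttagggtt
The Car9 window held an ACGTG on the opposite strand, 18 to 14 bases before the start, and a TGAGTCA 77 to 71 bases before it. In human, CA9 is known for a hypoxia response element directly before its start. The Car12 window held none of the 5 motifs. The start used for Car12 lies inside the gene's full span (chromosome 9, 66712296 to 66766845, plus strand), so other starts of that gene are not covered. Among 32851 promoters of the same length, 16.6% held ACGTG, 28.2% GCGTG, 1.55% TGACGTCA, 17.8% TGACG and 4.46% TGAGTCA. Car4 was the only other member with an entry, and its window held none of the 5 either. A match describes letters only and is not a measurement of binding.

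Car12, the other transmembrane member, was low in all groups and, like Car9, highest in the Sik-targeted libraries. Its levels were 0.729, 0.103 and 0.184 CPM in the Lkb1-deleted libraries, 6.61 and 7.60 CPM in sgSik1-3, 5.12, 2.70 and 4.09 CPM in sgSik1, and 0, 0.745, 1.20 and 0 CPM in the KT libraries. Every Sik-targeted library lay above every other library, and the Lkb1-deleted and KT libraries overlapped. The means were 0.339 ± 0.341 CPM in Lkb1-deleted (SD, n = 3), 5.23 ± 1.95 CPM in Sik-targeted (SD, n = 5) and 0.487 ± 0.593 CPM in KT libraries (SD, n = 4). The log2 change in Sik-targeted against KT libraries was 3.19 (SE 0.83), 9.13-fold higher. All 25 KT counts came from KT replicates 2 and 3, the libraries with the most genes counted, and without them no fold can be given. Car12 was no longer among the members counted as called without KT replicate 2 (3.36), KT replicate 4 (2.86) or sgSik1-3 replicate 2 (3.03). Set against KT libraries, the Lkb1-deleted log2 change was -0.68 (SE 0.99), and its sign rested on KT replicate 3, without which it was 0.077.

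Car4 was close to the limit of detection outside the KT libraries. It had 0, 0.926 and 0 CPM in the Lkb1-deleted libraries, 0.236 and 0 CPM in sgSik1-3, 0, 0.285 and 0.0546 CPM in sgSik1, and 3.62, 1.64, 1.04 and 3.18 CPM in the KT libraries. The KT libraries lay above all others, with 73 counts in all against 9 in Lkb1-deleted replicate 2 and 4 over the 5 Sik-targeted libraries. The log2 change was -4.21 (SE 1.09) in Sik-targeted and -2.73 (SE 1.14) in Lkb1-deleted libraries, both against the same KT libraries. In the Sik-targeted comparison Car4 was no longer among the members counted as called without KT replicate 1 (-3.94), sgSik1 replicate 3 (-3.89), sgSik1-3 replicate 2 (-3.95), or KT replicates 2 and 3 together (-4.73). In bulk RNA, fewer cells of a type and less RNA per cell cannot be told apart. Of 12 alveolar capillary endothelial markers, 11 were tested and 0 passed in either comparison with KT, beside 1.16% and 12.4% of all genes. In Lkb1-deleted and Sik-targeted libraries 2 and 3 had an unadjusted p under 0.05, beside 1782 and 3867 of 13575 genes. The summed level of these markers was 2.55 to 230 CPM in Lkb1-deleted, 22.9 to 47.8 CPM in Sik-targeted and 16.5 to 54.1 CPM in KT libraries. No marker was at 0 throughout a group. The 230 CPM was that of Lkb1-deleted replicate 2, the only library of its group with Car4 counts. In replicate 3, which had 0 Car4 counts, the sum was 89.8 CPM. The 16.5 CPM was that of KT replicate 1, the library with the highest Car4 level, 3.62 CPM. By group, the summed level of macrophage markers was lower in both groups where Car4 was lower. It was 717 to 2030 CPM in Lkb1-deleted, 99.8 to 1082 CPM in Sik-targeted and 5728 to 13638 CPM in KT libraries. Of 9 macrophage and osteoclast markers tested, 3 fell in Lkb1-deleted and 6 in Sik-targeted libraries, beside 0.552% and 6.56% of all genes. Marco, which marks alveolar macrophages, stood at 0 to 0.412, 0 to 0.236 and 4.67 to 17.7 CPM in these groups and KT. Within KT replicates 1 to 4, Marco was at 10.5, 17.7, 10.8 and 4.67 CPM, with Car4 at 3.62, 1.64, 1.04 and 3.18 CPM. Without KT replicates 2 and 3 the marker counts were 0 in Lkb1-deleted and 3 in Sik-targeted libraries, and without KT replicate 2 alone the Lkb1-deleted count was 1. Lyz2, which alveolar type 2 cells express too, made up most of the sum. The other 3 tested markers of that list did not pass in Sik-targeted libraries. Among them Cd68 was at -0.44 (SE 0.47, adjusted p = 0.579), and Acp5 went the other way, at 2.09 (SE 0.72, adjusted p = 0.0683). Acp5 levels were 0.184 to 6.44 CPM in Lkb1-deleted, 5.41 to 28.1 CPM in Sik-targeted and 0.849 to 4.56 CPM in KT libraries. In the same comparison 2 of 5 fibroblast markers tested were lower, beside 6.56% of all genes. These 2 were Col3a1, at -4.19 on the log2 scale (SE 1.01, adjusted p = 0.0186), and Pdgfra, at -4.03 (SE 1.05, adjusted p = 0.0252). They passed in 10 and 5 of the 12 fits that each left out 1 library. The sum of that list was 1.58 to 378 CPM in Lkb1-deleted, 12.9 to 38.7 CPM in Sik-targeted and 27.5 to 375 CPM in KT libraries. Of 7 markers of alveolar type 1 cells, Rtkn2 fell by 3.21 and Cav1 by 2.56 in Sik-targeted libraries (adjusted p = 0.0120 for each), while the sum of that list overlapped between groups, at 599 to 631 CPM in Lkb1-deleted, 424 to 794 CPM in Sik-targeted and 438 to 841 CPM in KT libraries. Without KT replicates 2 and 3 these 4 genes had adjusted p-values of 0.0936 to 0.182. The part of any of these cells in the Car4 values was not tested.

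Car8 was the most abundant member in KT libraries and the one with the largest drop in CPM. The values were 7.17, 81.9 and 48.3 CPM in the Lkb1-deleted libraries, 5.67 and 9.05 CPM in sgSik1-3, 1.14, 24.8 and 6.99 CPM in sgSik1, and 270.0, 78.3, 113 and 203 CPM in the KT libraries. Every Sik-targeted library lay below every KT library; the Lkb1-deleted libraries overlapped both groups, with replicate 1 among the Sik-targeted values and replicate 2 within the KT range. The means were 45.8 ± 37.4 CPM in Lkb1-deleted (SD, n = 3), 9.52 ± 9.0 CPM in Sik-targeted (SD, n = 5) and 166 ± 87.0 CPM in KT libraries (SD, n = 4). The log2 change in Sik-targeted against KT libraries was -4.10 (SE 0.75), 17.2-fold lower, and it lay between -4.83 and -3.78 over 19 alternatives. It was -1.86 (SE 0.82) in Lkb1-deleted against KT libraries, and -1.34 without Lkb1-deleted replicate 1. Sftpc and Lamp3, markers of alveolar type 2 cells, were lower along with it in Sik-targeted libraries. Sftpc changed by -3.98 (SE 0.96, adjusted p = 0.0172) and Lamp3 by -2.70 (SE 0.57, adjusted p = 0.00906) on the log2 scale; without KT replicates 2 and 3 neither passed (adjusted p = 0.0611 for each). Sftpb, a surfactant gene of the same cells, was not lower: it stood at 4015 to 29193 CPM in Sik-targeted and 3937 to 7399 CPM in KT libraries, a log2 change of 1.05 (SE 0.52, adjusted p = 0.202). Over the whole list of 8 lung epithelial markers, 2 rose (Krt8 and Krt18) and 2 fell, beside 5.81% and 6.56% of all genes. The sum of the list was 9696 to 33556 CPM in Sik-targeted and 13460 to 63894 CPM in KT libraries. Sftpc in Lkb1-deleted replicate 1 was 537 CPM, against 19255 and 18746 CPM in the other Lkb1-deleted libraries. The part of alveolar cell state in the Car8 values was not tested.

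The IP3 receptors are the channels that Car8 is known to act on through Itpr1, and they release calcium from the endoplasmic reticulum. All 3 passed in Sik-targeted against KT libraries, beside 12.4% of all genes. The list was chosen with earlier results of these data known, so nothing is read from that count. Itpr1 fell by 1.05 on the log2 scale (SE 0.33, adjusted p = 0.0492), with 58.0 ± 8.51 CPM in Sik-targeted (SD, n = 5) and 120 ± 17.4 CPM in KT libraries (SD, n = 4). Itpr2 fell by 1.00 (SE 0.26, adjusted p = 0.0245), and Itpr3 rose by 1.37 (SE 0.41, adjusted p = 0.0430). Of the same 3 receptors 0 passed in Lkb1-deleted against KT libraries, in edgeR or DESeq2, and 0 had an unadjusted p under 0.05. Itpr1 in Lkb1-deleted replicate 1 was 33.8 CPM, below all 11 other libraries, while replicates 2 and 3 were at 116 and 123 CPM, within the KT range. The number of receptors that passed was 0 without KT replicates 2 and 3, without KT replicate 2, 3 or 4, sgSik1 replicate 3 or sgSik1-3 replicate 2, and it was 1 without KT replicate 1 or sgSik1 replicate 1.

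Car2, the widely expressed cytosolic enzyme, and Car13 lie with Car3 and Car1 in a cluster on chromosome 3, in the order Car13 (14641727 to 14663002), Car1, Car3 (14863538 to 14872381) and Car2 (14886269 to 14900770), but they did not share a pattern. Car2 had 11.1, 10.7 and 3.67 CPM in the Lkb1-deleted libraries, 28.6 and 17.0 CPM in sgSik1-3, 7.11, 8.54 and 18.5 CPM in sgSik1, and 39.2, 24.2, 41.2 and 24.2 CPM in the KT libraries. All Lkb1-deleted and all sgSik1 libraries lay below all KT libraries, as did sgSik1-3 replicate 2 (17.0 CPM). Only sgSik1-3 replicate 1 (28.6 CPM) reached into the KT range. The log2 change was -1.91 (SE 0.52) in Lkb1-deleted and -1.01 (SE 0.43) in Sik-targeted libraries, against the same KT libraries. Car2 was counted as called in Lkb1-deleted libraries with DESeq2 (-1.91), without the low-count filter (-1.90) or without sgSik1 replicate 1 (-1.92). Car2 is abundant in red cells and osteoclasts. Of 10 erythroid markers, 8 were in the table and 0 passed the filter, with sums of 0.206 to 3.31 CPM in Lkb1-deleted, 0 to 2.27 CPM in Sik-targeted and 1.10 to 6.48 CPM in KT libraries. The sum of the macrophage and osteoclast list, mostly Lyz2, was highest in the KT libraries. Among its genes, Acp5 was higher in every Sik-targeted than in every KT library. Ctsk (0 to 1.31 against 3.62 to 16.4 CPM) and Atp6v0d2 (0.181 to 1.85 against 3.61 to 62.1 CPM) were lower in every Sik-targeted than in every KT library. The part of these cells in the Car2 values was not tested.

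Car13 showed no separation of groups. Its levels were 11.7, 5.35 and 2.75 CPM in the Lkb1-deleted libraries, 20.8 and 9.59 CPM in sgSik1-3, 7.39, 6.55 and 16.4 CPM in sgSik1, and 4.56, 4.32, 4.90 and 10.4 CPM in the KT libraries. Groups overlapped in every comparison. The log2 change was 1.02 (SE 0.49) in Sik-targeted and 0.15 (SE 0.54) in Lkb1-deleted against KT libraries. Without Lkb1-deleted replicate 1 the second value was -0.53.

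Car3, known from muscle and fat, had counts in only 2 of the 12 libraries. It had 0 CPM in every Lkb1-deleted and sgSik1-3 library, 0, 0.285 and 0 CPM in sgSik1, and 0, 1.27, 0 and 0 CPM in the KT libraries. The value in KT replicate 2 came from 17 counts and that in sgSik1 replicate 2 from 2. Skeletal muscle markers summed to 1.34 to 27.2 CPM in Lkb1-deleted, 2.60 to 9.11 CPM in Sik-targeted and 6.92 to 25.7 CPM in KT libraries, nearly all of it from Ttn (1.34 to 26.4, 1.89 to 8.83 and 5.82 to 25.7 CPM in these groups), and adipocyte markers to at most 8.12 CPM anywhere. At this depth Car3 did not pass the low-count filter, so differences in it were not tested.

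**Figure D2:**
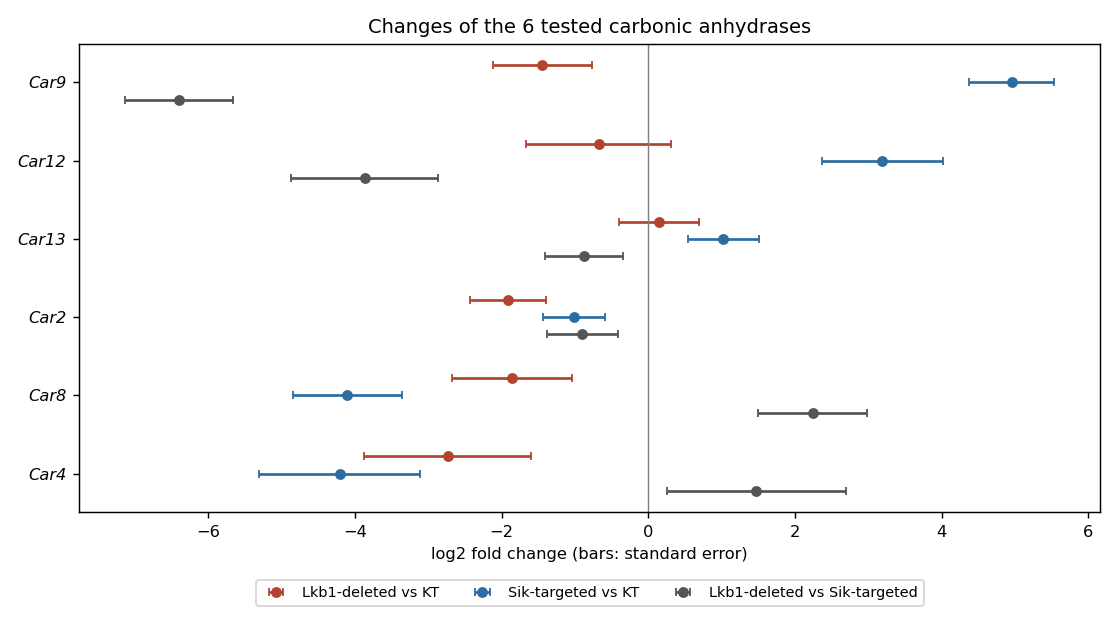
Fitted log2 fold change of the 6 tested members, with bars for the standard error, in Lkb1-deleted against KT, Sik-targeted against KT and Lkb1-deleted against Sik-targeted libraries. Car9 and Car12 lie right of 0 in Sik-targeted against KT (4.95 and 3.19) and left of 0 in the other comparisons, while Car8 and Car4 lie left of 0 in both comparisons with KT.

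The direct comparison of the mutants set Car9 furthest apart. The Lkb1-deleted libraries held 15 Car9 counts in all, so the size of the fold between the mutants rests on few counts. In Lkb1-deleted against Sik-targeted libraries the log2 change of Car9 was -6.40 (SE 0.73), 84.5-fold lower in the Lkb1-deleted libraries. The value lay between -7.22 and -5.89 over 19 alternatives, and Car9 was not counted as called when the 4 KT libraries were left out of the fit (-6.37). Car12 followed with -3.87 (SE 1.00) and Car2 and Car13 with -0.90 (SE 0.48) and -0.87 (SE 0.53). Car8 was at 2.24 (SE 0.74) and Car4 at 1.48 (SE 1.22). Without Lkb1-deleted replicate 1 these changes were -5.13 for Car12, 2.74 for Car8 and -5.89 for Car9, and all 3 were counted as called.

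The titles separate sgSik1-3 from sgSik1, and the members' changes between them had wide errors. Car9 averaged 78.0 ± 36.4 CPM in sgSik1-3 (SD, n = 2) and 46.3 ± 23.0 CPM in sgSik1 libraries (SD, n = 3), a log2 change of 0.75 (SE 0.60). Car12 averaged 7.11 ± 0.698 CPM in sgSik1-3 and 3.97 ± 1.21 CPM in sgSik1 libraries with no overlap, yet its log2 change of 0.84 had an SE of 0.97. Car2 changed by 0.97 (SE 0.54), Car13 by 0.56 (SE 0.64) and Car8 by -0.60 (SE 1.03). The median over all genes was itself shifted, to -0.14 in this comparison, -0.25 in sgSik1-3 against KT and -0.10 in sgSik1 against KT libraries. Against the same KT libraries, Car9 was at 5.38 (SE 0.61) in sgSik1-3 and 4.63 (SE 0.58) in sgSik1 libraries, and Car8 at -4.47 (SE 1.19) in sgSik1-3 and -3.87 (SE 0.96) in sgSik1 libraries.

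Dividing CPM by exon length allows the members to be ranked against each other. In Lkb1-deleted libraries the order was Car8 with 11.9 CPM per kilobase, Car2 with 4.74, Car13 with 2.87, Car9 with 0.364, Car4 with 0.246 and Car12 with 0.0911. In Sik-targeted libraries Car9 led with 29.2 CPM per kilobase, ahead of Car2 with 8.92, Car13 with 5.28, Car8 with 2.47, Car12 with 1.41 and Car4 with 0.0916. In KT libraries Car8 led with 43.1 CPM per kilobase, then Car2 with 18.0, Car13 with 2.63, Car4 with 1.89, Car9 with 0.956 and Car12 with 0.131. The member with the highest mean was thus Car9 in Sik-targeted and Car8 in Lkb1-deleted and KT libraries. Neighbours in these orders overlapped between libraries on the same scale, except Car13 over Car9 in Lkb1-deleted, Car12 over Car4 in Sik-targeted, and Car2 over Car13 and Car9 over Car12 in KT libraries.

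The table held 9 other carbonic anhydrases, of which 2 passed the filter in the fit by genotype. Of these 2, 0 were called by edgeR in the 3 comparisons by genotype. Only Car5b in Sik-targeted against KT libraries had an unadjusted p under 0.05, and DESeq2 called it. Car5b, a mitochondrial form encoded on chromosome X (163976822 to 164028010), stood at 28.3, 4.22 and 2.20 CPM in Lkb1-deleted, 37.8 and 24.3 CPM in sgSik1-3, 6.25, 8.26 and 16.4 CPM in sgSik1, and 4.56, 3.72, 4.26 and 5.31 CPM in KT libraries. Every Sik-targeted library lay above every KT library, with a log2 change of 2.06 (SE 0.68, adjusted p = 0.0574) that passed in 7 of 19 alternatives, among them the fit without Lkb1-deleted replicate 1. In sgSik1-3 against KT libraries Car5b passed, at 2.82 (SE 0.71, adjusted p = 0.0429), and in sgSik1 against KT libraries it was at 1.26 (SE 0.65, adjusted p = 0.243). Both sgSik1-3 libraries lay above all sgSik1 libraries, but the difference between them, 1.56 (SE 0.75), did not pass (adjusted p = 1). Lkb1-deleted against KT libraries showed a change of 1.39 (SE 0.72, adjusted p = 0.441), and -0.43 without replicate 1. Car15, a membrane-anchored form, changed by -1.60 (SE 0.81, adjusted p = 0.207) in Sik-targeted and by -0.58 (SE 0.90, adjusted p = 0.849) in Lkb1-deleted against KT libraries.

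The remaining 7 forms had few counts. Car7 had 0 counts in all libraries. Car1, Car5a and Car10 had counts in KT libraries only, 10, 20 and 28 in all, of which 10, 18 and 28 came from KT replicates 2 and 3. Car6, Car11 and Car14 did not exceed 0.926 CPM in any library. No difference in these forms was detectable at this depth.

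HIF target genes were examined beside Car9, since Car9 belongs to the same class. All 22 listed targets were tested, and the list was chosen with earlier results of these data known. In Sik-targeted against KT libraries 8 rose and 0 fell, beside 5.81% and 6.56% of all genes. The median log2 change was 0.60, beside -0.035 over all genes. The secreted glycoprotein Stc2 rose by 4.32 (SE 0.68, adjusted p = 0.00224), Ndrg1, a stress-induced gene, by 3.25 (SE 0.56, adjusted p = 0.00367), the glucose transporter Slc2a1 by 2.75 (SE 0.61, adjusted p = 0.0115) and the glycolytic enzyme Pgk1 by 2.35 (SE 0.52, adjusted p = 0.0121). These 4 passed in all 12 fits that each left out 1 library. The other 4 that rose were Ldha, Angptl4, Adm and Vegfa. Among the 22 targets 0 passed in Lkb1-deleted against KT libraries in edgeR, and the median was 0.47. An unadjusted p under 0.05 was seen for 8 of them, beside 1782 of 13575 genes. DESeq2 called 3 of them, beside 511 of all genes. Without KT replicates 2 and 3 the Sik-targeted count was 0, and it was 4 without either of them alone. Of 9 regulators of HIF, 0 passed in Lkb1-deleted libraries in edgeR or DESeq2 (0 at an unadjusted p under 0.05) and 1 rose in Sik-targeted libraries: Egln3, a hydroxylase that marks HIF for degradation and is itself HIF-induced, at 2.75 (SE 0.60, adjusted p = 0.0108), with 8.52 ± 3.40 CPM in Sik-targeted (SD, n = 5) and 1.24 ± 0.682 CPM in KT libraries (SD, n = 4). It too missed the threshold without KT replicates 2 and 3 (adjusted p = 0.150).

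**Figure D3:**
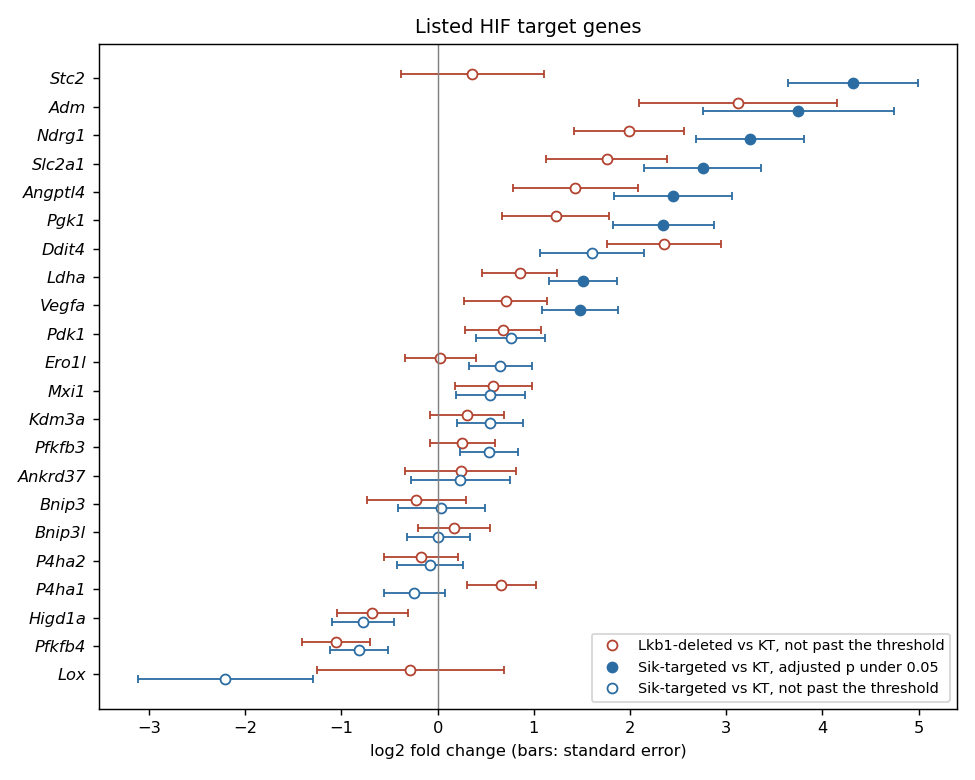
Fitted log2 fold change of the 22 listed HIF target genes, with bars for the standard error, in Lkb1-deleted against KT and in Sik-targeted against KT libraries. Filled points mark an adjusted p under 0.05. The 8 filled points are all in Sik-targeted against KT, led by Stc2 at 4.32; the medians over the 22 genes are 0.47 in Lkb1-deleted and 0.60 in Sik-targeted libraries.

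Lkb1-deleted replicate 1 had high HIF targets and gastric markers without Car9. Ndrg1 stood at 177, 43.6 and 23.9 CPM in Lkb1-deleted replicates 1 to 3, at 81.8 to 273 CPM in Sik-targeted and at 12.9 to 29.5 CPM in KT libraries. Slc2a1 was at 199, 33.8 and 30.5 CPM in the same Lkb1-deleted libraries, at 70.9 to 387 CPM in Sik-targeted and at 19.0 to 34.0 CPM in KT libraries. Ctse, a gastric protease chosen after values were seen, was at 794, 16.2 and 28.7 CPM in Lkb1-deleted, 348 to 1282 CPM in Sik-targeted and 13.2 to 55.4 CPM in KT libraries. In all 3 genes replicate 1 lay within the Sik-targeted range, yet its Car9 level of 0.122 CPM, from 1 count, was the lowest of the 12 libraries. Stc2 in that library was 1.34 CPM, against 4.98 to 38.4 CPM in Sik-targeted and 0.629 to 1.70 CPM in KT libraries, and Stc2 was the only one of the 22 targets called in Lkb1-deleted against Sik-targeted libraries, at -3.96 (SE 0.75, adjusted p = 0.0422). That call held in 2 of the 12 fits that each left out 1 library, and was lost with only the groups compared in the fit (adjusted p = 0.161) or without KT replicates 2 and 3 (adjusted p = 0.110). The 14 gastric and gut markers summed to 610 to 2565 CPM in Sik-targeted and 43.0 to 104 CPM in KT libraries. Of these markers 10 were tested, and 7 rose in Sik-targeted against KT libraries, beside 5.81% of all genes. That count was 4 without KT replicate 2, 3 or 4, sgSik1 replicate 1 or sgSik1-3 replicate 2, and 0 without KT replicates 2 and 3 together. The parts of HIF and of gastric genes in the Car9 difference were not tested.

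**Figure D4:**
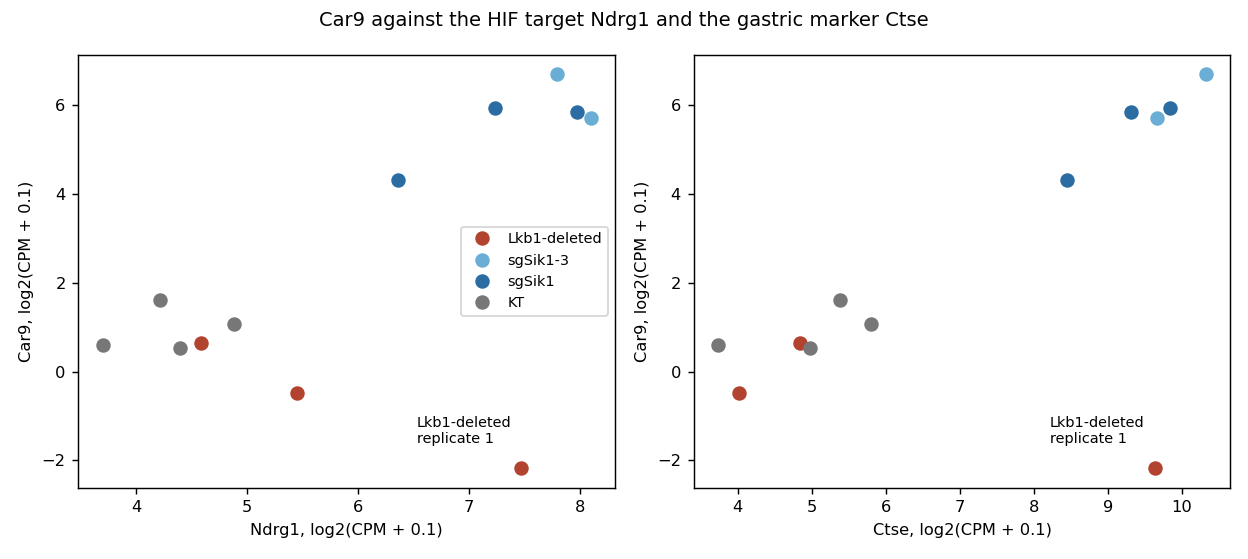
Car9 in each library against the HIF target Ndrg1 and against the gastric marker Ctse, all as log2(CPM + 0.1), with colours for Lkb1-deleted, sgSik1-3, sgSik1 and KT libraries. The 5 Sik-targeted libraries are high on both axes, and Lkb1-deleted replicate 1 has Ndrg1 (177 CPM) and Ctse (794 CPM) levels in their range with Car9 at 0.122 CPM.

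Genes that move bicarbonate, protons and lactate, or water and gas across membranes were examined as separate lists. Among those that passed in Sik-targeted against KT libraries, the bicarbonate transporters fell, and the other lists changed in both directions. Of 15 bicarbonate transporters 10 were tested, and 2 fell in Sik-targeted against KT libraries, beside 6.56% of all genes. The chloride and bicarbonate exchanger Slc26a4 fell by 4.67 (SE 0.80, adjusted p = 0.00372) and the sodium bicarbonate cotransporter Slc4a5 by 2.27 (SE 0.58, adjusted p = 0.0218). Slc26a4 averaged 2.55 ± 3.36 CPM in Sik-targeted (SD, n = 5) and 67.0 ± 41.6 CPM in KT libraries (SD, n = 4). Of 12 genes for proton and lactate export 9 were tested. Beside 12.4% of all genes, 3 of these 9 passed in Sik-targeted against KT libraries. Among them Bsg, a partner of lactate transporters, rose by 1.33 (SE 0.36, adjusted p = 0.0282) and the monocarboxylate transporter Slc16a7 fell by 3.18 (SE 0.82, adjusted p = 0.0236). Of 8 water and gas channels 4 were tested: Aqp1 rose by 2.09 (SE 0.62, adjusted p = 0.0405) and Aqp4 fell by 3.54 (SE 0.96, adjusted p = 0.0313). In Lkb1-deleted against KT libraries, Aqp4, with 0 counts in Lkb1-deleted and 106 in KT libraries, was the only gene of these 3 lists that passed (adjusted p = 0.0476, and in 3 of the 12 fits that each left out 1 library), and 4 bicarbonate transporters, 2 export genes and 2 channels had an unadjusted p under 0.05; DESeq2 called 1, 2 and 2 genes of these lists. Without KT replicates 2 and 3 each of these counts was 0. The export count was 0 without KT replicate 2 or 3 alone and 1 without sgSik1-3 replicate 2. The bicarbonate count was 1 without KT replicate 3 or 4, sgSik1 replicate 3 or sgSik1-3 replicate 2 and 5 without Lkb1-deleted replicate 1, and the channel count was 0 or 1 without any 1 of the KT libraries, sgSik1 replicate 1 or 3, or either sgSik1-3 library.

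The genes whose levels ran most like each member over the 12 libraries were found by Pearson's r of log2 CPM among 10100 genes, as a description, since the libraries share groups and r follows any difference between groups. For Car9 they were Il24, a cytokine (0.95), Ddah1, which breaks down methylarginines (0.94), and the sodium channel Scn8a (0.92). For Car12 they were the mitochondrial carrier Slc25a48 (0.96), Scn8a again (0.96) and Clcf1, a cytokine of the interleukin 6 family (0.95). For Car8 they were the complement component C6 (0.98), the sialyltransferase St3gal6 (0.97) and the peptidase Dpp4 (0.97). For Car2 they were Tgds (0.91), Ilvbl (0.91) and the nucleoporin Nup37 (0.86), and for Car13 Pttg1ip (0.95), Bmp3 (0.92) and the amino acid transporter Slc7a6 (0.91).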

How the data were processed

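Polyadenylated RNA from sorted cancer cells was measured in 12 libraries: 3 Lkb1-deleted, 5 Sik-targeted and 4 KT. Per the labels' protocols, tumours were dissociated at 37 C for 30 minutes, 30 ng of RNA was amplified to cDNA, and fragments were sequenced in pairs of 100 bases. Amplified reads carry no molecular identifiers, so counting limits cover counting error only. The authors deposited whole-number counts per gene symbol. Per the submitters' processing notes, STAR 2.4.2a, HTSeq and the mm10 genome were used; which annotation and strand setting went with them is not known here.

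These counts went into edgeR 4.0.16 (R 4.3.3), with TMM scaling, filterByExpr, robust quasi-likelihood F tests (two-sided) and Benjamini-Hochberg adjustment at 0.05 over all tested genes. One fit held 3 genotype groups (13575 genes) and another 4 title groups (15303 genes). The SE is the absolute log2 change over the square root of F. The fits were tested on simulated data. DESeq2 1.42.0, other scalings and filters, replicate blocks and left-out libraries were tried; list counts under them, and the list of genes outside the stated rule, were chosen after seeing the data. No libraries were duplicates: within groups, chi-square per degree of freedom was at least 15.1.

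The members and all gene lists were chosen with earlier results of these data known, so the counts called within a list are a description. Named are all 16 carbonic anhydrases and up to 4 genes per list with the smallest p past the threshold in each comparison with KT. The 3 most similar genes (prior count 2) are named per member of at least 2 CPM on average. Beyond that rule, Epcam, Krt8, Krt18, Sftpc, Lamp3, Sftpb, Acp5, Ctsk, Atp6v0d2 and Cd68 are named after their values were seen. So are Ttn, Marco, Lyz2, Ctse, Ldha, Angptl4, Adm, Vegfa and the targeted kinases. Coordinates and promoters come from RefSeq (GRCm38.p6, 7 and 3 members matched), exon lengths from GENCODE M21. Some genes of these lists are not reported here by name.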

Additional observations from a re-analysis of the deposited data

Results flagged for a closer look

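Car3 was at 1.27 CPM in KT replicate 2 and at 0.285 CPM, from 2 counts, in sgSik1 replicate 2, while the other libraries of these groups were at 0, so that any count would have stood apart. Car13 in KT replicate 4, at 10.4 CPM, was far above the 4.32 to 4.90 CPM of the other KT libraries. It came from 14 groups of values examined, in KT and Sik-targeted libraries only. For normally distributed values chance alone sets about 1 in 20 groups apart, where the other values are not all 0. CPM values need not be distributed so, and the rate for them is not known. The Car9 change against KT differed between Lkb1-deleted and Sik-targeted libraries by -6.40 on the log2 scale; Car9 was chosen with this result known, so the value is a description.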

How the results depend on the processing

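Of 580 recomputed changes of single carbonic anhydrases (31 results), 546 kept their direction and side of the threshold, 9 lost and 18 gained a call, and 7 changed sign, all of changes that had not passed. In Lkb1-deleted against KT libraries the sign changed for Car12 (0.077 without KT replicate 3; -1.93 to 0.077 without single libraries), Car13 (-0.15 without KT replicates 2 and 3, -0.53 without Lkb1-deleted replicate 1; -0.53 to 0.52) and Car5b (-0.43 without Lkb1-deleted replicate 1; -0.43 to 1.89). It changed for Car15 in Lkb1-deleted against Sik-targeted (-0.18 without Lkb1-deleted replicate 3; -0.18 to 1.42), and in sgSik1-3 against sgSik1 for Car8 (0.73 without sgSik1 replicate 2; -1.05 to 0.73) and Car13 (-0.11 without sgSik1-3 replicate 1; -0.11 to 1.12). Genes called in Lkb1-deleted against KT numbered 158, but 511 with DESeq2, 846 without the low-count filter, 49 with the replicate block, 3 without KT replicates 2 and 3, and 13 to 242 without single libraries. In Sik-targeted against KT they numbered 1679, but 3654 without the filter, 1050 with the block, 98 without KT replicates 2 and 3, and 577 to 2655 without single libraries. In Lkb1-deleted against Sik-targeted they numbered 30, but 312 with DESeq2, 698 without the filter, 0 with only the groups compared, 10 with the block, 9 without KT replicates 2 and 3, and 5 to 710 without single libraries. In sgSik1-3 against sgSik1 they numbered 0, but 6 with DESeq2, 44 without the filter and 0 to 4 without single libraries. Members called in Lkb1-deleted against KT were 1 with DESeq2 (Car2), 2 without the filter (Car2 and Car8) and 0 to 1 without single libraries; in Sik-targeted against KT, 2 to 4 without single libraries; in Lkb1-deleted against Sik-targeted, 2 with DESeq2, 3 without the filter, 0 with only the groups compared and 1 to 3 without single libraries. The cause of these shifts was not tested. Whether replicate numbers pair the samples was not settled: of 15 same-number pairs, 6 correlated above 0.1 (range -0.33 to 0.25). Pairs of unlike number were not examined for comparison. Among members the replicate block ended the Sik-targeted call of Car12 (2.90) and no other; among lists it left 0 IP3 receptors, 1 bicarbonate transporter, 1 channel, 2 export genes, 6 HIF targets and 4 gastric markers called in Sik-targeted against KT libraries, and 0 channels in Lkb1-deleted against KT libraries. Where a compared group fell to 0 counts no value was given. Leaving out an sgSik1-3 library leaves 1, whose spread is assumed to be like that of the other groups. Depth limits Car3 in every group, Car4 outside the KT libraries, Car9 in Lkb1-deleted libraries, and Car12 in Lkb1-deleted and KT libraries.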
